A study of Homo sapiens with 6 samples.

Results

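The 9 genes described here encode DPYD, UPP1, TYMP, CAD, DHODH, UMPS, UCK2, TK1 and TYMS, enzymes that break down, build or recycle uracil, uridine and thymidine. They were chosen by name, with earlier results of these data known, and are 9 of the 38637 genes in the deposited table. All 9 were present and expressed. Gene expression was measured by polyA RNA sequencing in OVCAR8, an established human ovarian cancer cell line that the labels give as wild type. The control group of 3 samples received DMSO, the solvent, and the treated group of 3 samples received 2 nM pladienolide B, a small molecule that inhibits the splicing factor SF3B1, each for 72 h. Both groups are the same single cell line, and nothing in the labels says whether the samples of a group were separate cultures, so the p-values measure only the spread between these samples.

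Pyrimidine nucleotides are made by 2 routes. In the de novo route, CAD performs the first steps from glutamine, bicarbonate and aspartate, DHODH in the inner mitochondrial membrane oxidises dihydroorotate, and UMPS joins orotate to a ribose phosphate and yields UMP. In the salvage route, UCK2 phosphorylates uridine and cytidine, and TK1, a cytosolic enzyme whose amount follows the cell cycle, phosphorylates thymidine. TYMS methylates dUMP to dTMP with a folate cofactor, the only de novo source of thymidylate. UPP1 and TYMP split uridine and thymidine into base and sugar phosphate, and DPYD takes the first, rate-limiting step in the breakdown of uracil and thymine. The same enzymes handle the drug fluorouracil: DPYD inactivates it, TYMS is its main target, and UMPS, UPP1, TYMP, UCK2 and TK1 can convert it to active nucleotides.

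The values are reads adjusted to a common library size (adjusted reads), and whole reads could be recovered from them, between 22621338 and 26130882 per sample. Among replicates, DMSO replicate 2 stood apart: the chi-square per gene, near 1 for counting noise alone, was 7.74 and 7.82 against the other DMSO samples, but 2.01 between DMSO replicates 1 and 3 and 3.21 to 4.82 between pladienolide B samples. SF3B1 itself, the target of the drug, was called higher by limma, by 0.31 on the log2 scale (adjusted p = 7.5e-06). The label of an epithelial ovarian line was checked against its markers. KRT8, KRT18, KRT7, PAX8 and EPCAM were between 431 and 53035 adjusted reads in every sample, while KRT19, CDH1, WT1 and MUC16 did not exceed 41.6. The leukocyte marker CD3E had 0 reads in all samples and PTPRC at most 2, CD14 had 5 to 19, the endothelial marker CDH5 at most 4 and the fibroblast marker DCN at most 2. The other endothelial markers, PECAM1 and VWF, had 18.6 to 45.1 adjusted reads and the fibroblast marker LUM 19.2 to 33.1, levels like those of the low epithelial markers, and COL3A1 had 1 to 14 reads. CD68 and COL1A1, which many cell lines express, had at least 1091 and 5602 adjusted reads.

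Of the 9 enzymes, 4 were lower in pladienolide B, 4 were higher and CAD did not pass the test, at an adjusted p below 0.05 by limma on log2(value + 1) with Benjamini-Hochberg adjustment over all 16178 tested genes. Among all tested genes 47.6% were called, 25.2% lower and 22.4% higher, so a call is common here and the size of each change says more than the count. Without DMSO replicate 2 the counts by limma were 4 lower and 3 higher, UCK2 being lost. The falls were larger than the rises: DPYD kept 40.0% of its DMSO level, TK1 53.2%, TYMP 64.5% and TYMS 77.1%, while the largest rise, that of UPP1, was 1.27-fold. The median log2 fold change of the 9 was -0.10, against 0 for all tested genes. For the 8 called enzymes no pladienolide B sample lay within the DMSO range. Such groups without overlap were found for 55.3% of the tested genes, 28.8% with the treated samples lower and 26.4% with them higher, against 4 and 4 of the 9. Falls of at least 2-fold were called for 1.98% of tested genes and rises of that size for 1.95%. DPYD was the one enzyme among them.

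**Figure D1:**
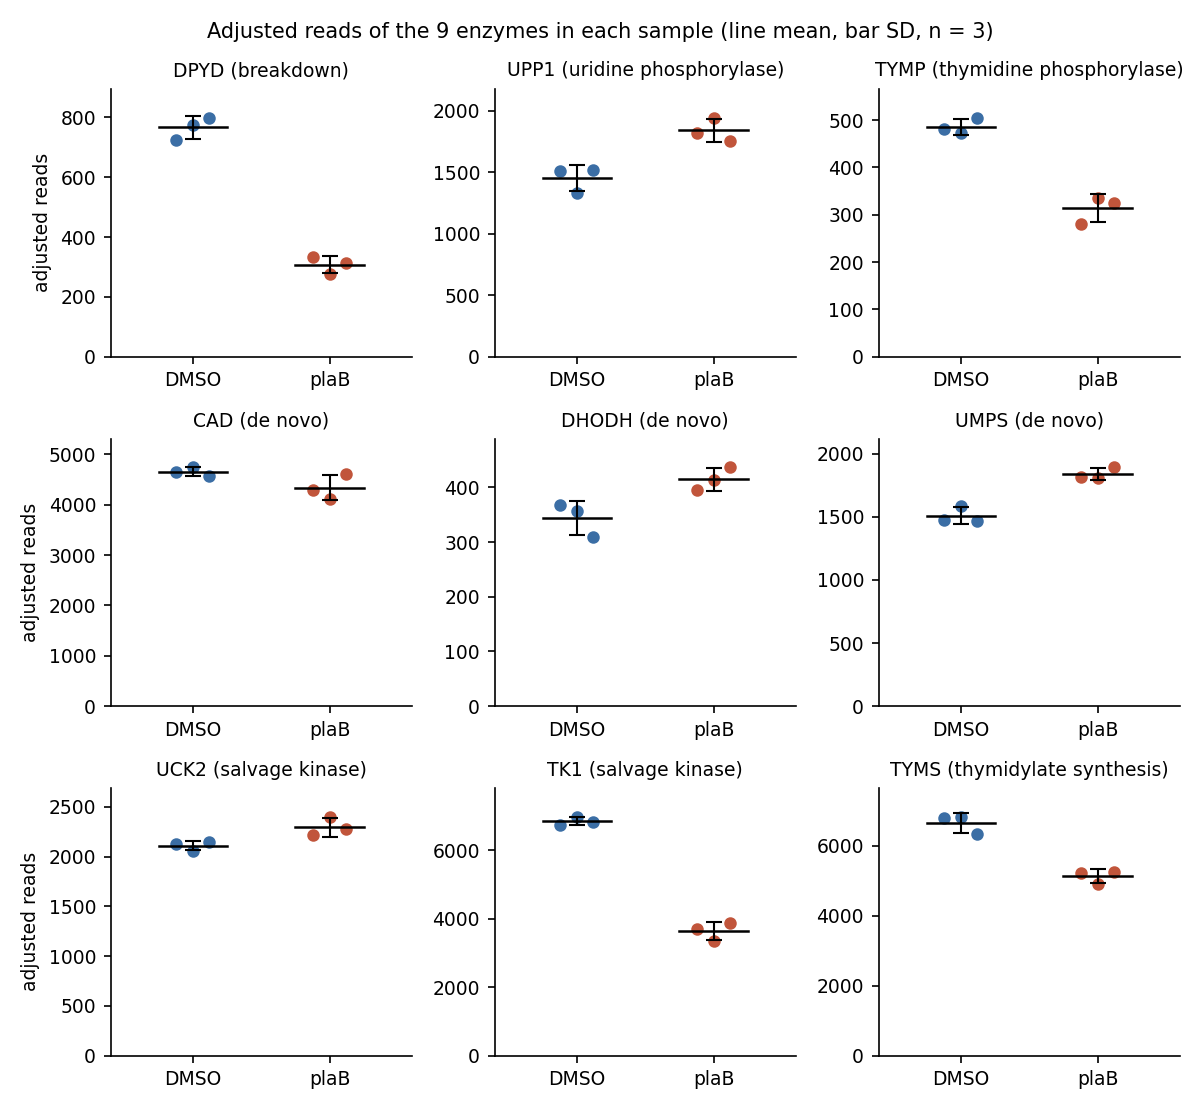
Adjusted reads of each enzyme in the 3 DMSO (blue) and 3 pladienolide B (red) samples. Each y axis starts at 0, the line is the mean and the bar the SD (n = 3). The groups are apart for every enzyme but CAD, and the widest gap relative to the level is that of DPYD.

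**Figure D2:**
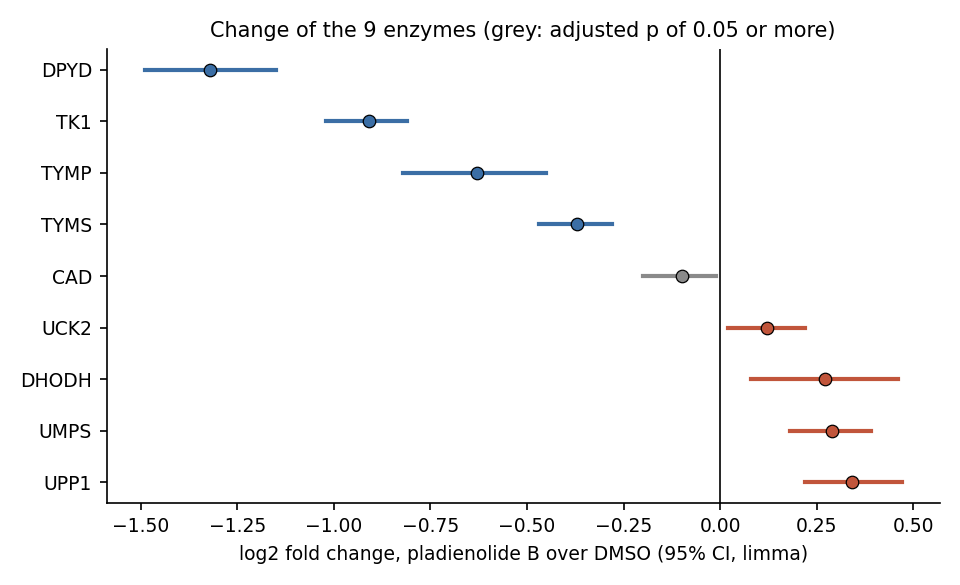
Log2 fold change of each enzyme, pladienolide B over DMSO, with its 95% confidence interval from limma on the x axis. Blue and red points were called lower and higher, and grey marks CAD, with an adjusted p of 0.075. The points run from -1.32 for DPYD to 0.34 for UPP1.

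The bases before the start sites of the 4 enzymes that fell are shown because these genes moved in the same direction. The sequences are from RefSeq on GRCh38.p14. Each is the 250 bases before the start of the canonical transcript, read 5′ to 3′ on the strand of the gene. For DPYD, TYMP and TK1 this start lies inside the deposited span of the gene, so part of each window does too. The CCAAT boxes of TK1 lie in that part. Capitals mark a CCAAT box (CCAAT, or ATTGG when it lies on the other strand) or an E2F-type site (TTTGGCGC, TTTCGCGC, TTTCCCGC or TTTGCCGC, on either strand).
DPYD (chr1:97921035-97921284, - strand): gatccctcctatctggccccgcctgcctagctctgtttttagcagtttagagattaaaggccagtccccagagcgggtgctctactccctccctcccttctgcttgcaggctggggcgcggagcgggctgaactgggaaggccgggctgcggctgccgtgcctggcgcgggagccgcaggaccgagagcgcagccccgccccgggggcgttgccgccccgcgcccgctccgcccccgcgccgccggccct
TYMP (chr22:50530013-50530262, - strand): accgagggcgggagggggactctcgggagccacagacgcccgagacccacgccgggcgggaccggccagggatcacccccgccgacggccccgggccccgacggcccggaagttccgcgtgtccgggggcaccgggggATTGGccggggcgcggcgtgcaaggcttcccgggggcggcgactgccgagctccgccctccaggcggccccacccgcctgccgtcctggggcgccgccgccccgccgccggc
TK1 (chr17:78187053-78187302, - strand): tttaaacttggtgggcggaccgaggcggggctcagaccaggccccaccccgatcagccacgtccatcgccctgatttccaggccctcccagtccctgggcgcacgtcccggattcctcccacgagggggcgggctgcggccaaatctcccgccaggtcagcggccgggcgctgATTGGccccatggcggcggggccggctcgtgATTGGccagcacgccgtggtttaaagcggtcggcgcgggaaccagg
TYMS (chr18:657403-657652, + strand): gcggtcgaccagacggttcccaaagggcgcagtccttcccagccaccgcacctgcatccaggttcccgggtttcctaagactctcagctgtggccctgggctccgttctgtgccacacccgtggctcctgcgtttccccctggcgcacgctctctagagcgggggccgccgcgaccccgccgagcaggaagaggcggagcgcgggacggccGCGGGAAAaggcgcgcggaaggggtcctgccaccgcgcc
These 4 windows did not hold a common match. TK1 had 2 CCAAT boxes, both as ATTGG, beginning 77 and 46 bases before the start site. TYMP had 1, beginning 112 bases before it, and DPYD and TYMS had none. TYMS held the one E2F-type match, GCGGGAAA, beginning 39 bases before its start. Of 35116 promoter windows of the same length, 32% held a CCAAT box, 9.53% held 2 or more and 2.79% held an E2F-type match. Among the 9 enzymes, 5 held a CCAAT box and 1 an E2F-type match. A GC box (GGGCGG on either strand, where neighbouring boxes can share bases) was found in 7 of 9 windows, against 42.6% of all promoters. The 35116 windows were not matched to the 9 for gene type, expression or GC content. These matches describe letters only.

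DPYD, the dehydrogenase that begins uracil and thymine breakdown, had the largest change of the 9. The authors had already reported lower DPYD from these data, so its place among the 9 is not an independent finding. It lies on the - strand at chr1:97077743-97921059 (GRCh38), a span of 843 kb, of which the 23 exons of the canonical GENCODE transcript take 0.524%. The longest of its introns has 94436 bases. DPYD had 726, 774 and 799 adjusted reads in DMSO replicates 1 to 3. In pladienolide B replicates 1 to 3 it had 333, 276 and 312. The lowest DMSO sample was still more than double the highest pladienolide B sample, as counted in whole reads by 768 against 320. The log2 fold change was -1.32 (SE 0.08, 95% CI -1.49 to -1.15, adjusted p = 1.6e-09 by limma). Of all tested genes 0.705% had a log2 fold change as low as this.

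The steps after DPYD in the same pathway could not be followed in these cells. DPYS, the dihydropyrimidinase that opens the ring, had 0 to 3 reads per sample, and UPB1, which makes beta-alanine, had 0 to 5. Both were left out of the test for low values. DPYD was thus the one tested gene of the 3 breakdown genes. The genes that lie inside DPYD on the opposite strand had few reads as well. DPYD-AS1, which overlaps it for 227033 bases, had 0 to 3 reads per sample, LOC105378867 had 0 to 4, and DPYD-AS2 had 0 in all samples.

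DPYD was set beside other genes of great length, since it ranked 55 by span among the tested genes. Of 205 tested genes that span at least 500 kb, 33.2% were called lower and 14.1% higher, and their median log2 fold change was -0.11. DPYD and 1 other of the 205 had a log2 fold change of -1.32 or below. Among the 8 other enzymes the spans run from 4.33 kb for TYMP to 84.0 kb for UCK2. TYMP, the shortest, was lower, and UCK2, the longest of these, was the smallest called rise. Whether span has a part in these changes was not tested.

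The 5 genes whose profile over the 6 samples lay closest to that of DPYD were USP24, TBC1D22A, PXMP2, KIF20A and LINP1. They were taken from 13210 tested genes with a mean of at least 50 adjusted reads, by Euclidean distance between log2 values centred on the mean of each gene. The distances ran from 0.197 for USP24, a ubiquitin-specific peptidase, to 0.261 for LINP1, a long noncoding RNA. Their log2 fold changes were -1.43, -1.23, -1.44, -1.14 and -1.16 in the same order. Their spans ran from 1.56 kb for LINP1 to 462 kb for TBC1D22A, and so were all shorter than that of DPYD. The likeness is mostly the difference between the groups, which these genes share by the way they were chosen.

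The phosphorylases UPP1 and TYMP moved in opposite directions. UPP1, which frees uracil from uridine, lies on the + strand at chr7:48088308-48108736. It had 1510, 1330 and 1523 adjusted reads in DMSO and 1820, 1945 and 1758 in pladienolide B, in the order of the replicates. Its log2 fold change was 0.34 (SE 0.06, adjusted p = 0.00016 by limma). All 3 pladienolide B samples lay above the highest DMSO sample.

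TYMP, which frees thymine from thymidine, lies on the - strand at chr22:50525752-50530085. It had 482, 472 and 505 adjusted reads in DMSO and 281, 336 and 325 in pladienolide B. Its log2 fold change was -0.63 (SE 0.09, adjusted p = 1.4e-05 by limma), and its highest treated sample stayed well below its lowest control sample. TYMP overlaps SCO2, a mitochondrial copper chaperone gene on the same strand, by 691 bases, and reads there may be split or lost. SCO2 had between 397 and 446 adjusted reads over all 6 samples and was not called by limma (-0.04 on the log2 scale, adjusted p = 0.70).

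UPP2, the other uridine phosphorylase, had 0 to 3 reads per sample. The log2 ratio of UPP1 to TYMP in a sample, a quantity that does not depend on library size, ran from 1.49 to 1.65 in the controls and from 2.43 to 2.69 in the treated samples. The exact permutation test over the 6 samples gave p = 0.1, two-sided, the smallest that 3 against 3 samples allow (adjusted p = 0.11 over 8 gene pairs that were picked after their values were seen).

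The de novo enzymes changed little. UMPS, which makes UMP from orotate, lies on the + strand at chr3:124730442-124749273. It had 1474, 1585 and 1466 adjusted reads in DMSO and 1818, 1804 and 1893 in pladienolide B, a 1.22-fold rise. The log2 fold change was 0.29 (SE 0.05, adjusted p = 0.00018 by limma), and each treated sample exceeded each control sample.

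DHODH, the mitochondrial step, lies on the + strand at chr16:72008744-72027659 and had fewer reads than CAD or UMPS. It had 368, 357 and 309 adjusted reads in DMSO and 395, 413 and 437 in pladienolide B. The gap between the groups, from 368 to 395, was small beside the spread within DMSO. The log2 fold change was 0.27 (SE 0.09, adjusted p = 0.018 by limma). The call was lost without DMSO replicate 3 (log2 fold change 0.19, adjusted p = 0.105 by limma) and without pladienolide B replicate 3 (0.23, adjusted p = 0.0788 by limma).

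CAD, which starts the de novo route, lies on the + strand at chr2:27217369-27243943. It had 4653, 4745 and 4565 adjusted reads in DMSO and 4291, 4121 and 4606 in pladienolide B, so that pladienolide B replicate 3 fell inside the DMSO range. The log2 fold change was -0.10, with a 95% confidence interval of -0.20 to -0.01 and an adjusted p of 0.075 by limma. Without pladienolide B replicate 3 it became a call, at -0.15 (adjusted p = 0.0222 by limma). The last step to CTP was not called either: CTPS1 stood at 0.08 and CTPS2 at -0.19 on the log2 scale (adjusted p by limma 0.21 and 0.099).

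The salvage kinases differed from each other. TK1, the cytosolic thymidine kinase, lies on the - strand at chr17:78174079-78187204 and had the second largest fall of the 9 enzymes. It had 6734, 6979 and 6835 adjusted reads in DMSO and 3712, 3351 and 3861 in pladienolide B. The highest treated sample, at 3861, lay far below the lowest control, at 6734. The log2 fold change was -0.91 (SE 0.05, 95% CI -1.02 to -0.81, adjusted p = 2.9e-10 by limma).

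TK2, the mitochondrial thymidine kinase, had 336 to 415 adjusted reads in the controls and 361 to 428 in the treated samples and was not called by limma (0.04 on the log2 scale, adjusted p = 0.79). The log2 ratio of TK1 to TK2 within a sample ran from 4.02 to 4.37 in the controls and from 3.05 to 3.36 after treatment (exact permutation p = 0.1, the smallest possible, adjusted p = 0.11). TK1 also overlaps AFMID, an enzyme gene of tryptophan breakdown, for 2103 bases on the opposite strand. AFMID moved the other way, from a range of 521 to 581 adjusted reads in the controls to one of 677 to 733 after treatment (log2 fold change 0.36, adjusted p = 0.00037 by limma).

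UCK2, which phosphorylates uridine and cytidine, lies on the + strand at chr1:165827614-165911618. It had 2126, 2059 and 2149 adjusted reads in DMSO and 2214, 2402 and 2278 in pladienolide B. Its log2 fold change of 0.12 (SE 0.05, 95% CI 0.02 to 0.22, adjusted p = 0.044 by limma) was the smallest called. The call was lost without any one of 5 of the 6 samples, with values down to 0.09 (adjusted p = 0.188 by limma) without pladienolide B replicate 2. The related kinase UCK1 rose more, from a range of 885 to 949 adjusted reads in the controls to one of 1300 to 1395 after treatment (0.53 on the log2 scale, adjusted p = 7.4e-07 by limma). The log2 ratio of UCK1 to UCK2 ran from -1.22 to -1.17 in the controls and from -0.85 to -0.71 in treated samples (exact permutation p = 0.1, adjusted p = 0.11). DCK, the deoxycytidine kinase, rose by 0.20 on the log2 scale (adjusted p = 0.0023 by limma). UCKL1 fell by 0.34 and UPRT, a uracil phosphoribosyltransferase homologue, fell by 0.62 (adjusted p = 0.00079 and 0.00074 by limma).

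TYMS, thymidylate synthase, lies on the + strand at chr18:657653-673578. It had 6800, 6834 and 6328 adjusted reads in DMSO and 5235, 4913 and 5252 in pladienolide B. Each treated sample lay below each control, but the fall was smaller than that of TK1. The log2 fold change was -0.37 (SE 0.04, adjusted p = 3.0e-06 by limma). TYMS overlaps ENOSF1 on the opposite strand by 3261 bases. ENOSF1 fell by nearly the same amount, from a range of 2950 to 3371 adjusted reads in the controls to one of 2340 to 2516 after treatment (log2 fold change -0.39, adjusted p = 1.7e-05 by limma). The log2 ratio of TYMS to ENOSF1 lay between 1.02 and 1.10 in the controls and between 1.06 and 1.07 after treatment (exact permutation p = 0.6). Whether reads were assigned by strand is not stated, so reads in the shared bases cannot be given to either gene. TYMSOS, a noncoding RNA on the other strand at the start of TYMS, had 29.0 to 42.3 adjusted reads and was not called.

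DUT, SHMT1 and SHMT2, which act beside TYMS in making thymidylate, were called lower too. DUT, which makes dUMP and keeps dUTP low, had a log2 fold change of -0.61. Those of SHMT2 and SHMT1, which load the folate cofactor with its carbon unit, were -0.48 and -0.38 (adjusted p by limma at most 3.0e-05 for these 3 genes). DTYMK, which phosphorylates dTMP, fell by 0.37 (adjusted p = 0.00026 by limma). Of the ribonucleotide reductase genes, which supply all deoxynucleotides, RRM2 fell by 0.49 and RRM1 fell by 0.21, and RRM2B, the p53-inducible subunit, was not called (0.07, adjusted p = 0.47 by limma). The log2 ratio of RRM2 to RRM2B ran from 3.18 to 3.36 in the controls and from 2.70 to 2.81 after treatment (exact permutation p = 0.1, adjusted p = 0.11).

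TK1, TYMS and RRM2 are known as genes of the S phase, and 16 markers of S phase and proliferation were read beside them. Of these, 7 were called lower and 2 higher, with a median log2 fold change of -0.09. That is 56.2% called, against 47.6% of all tested genes (25.2% lower, 22.4% higher), which were not matched for expression. In the list of 16, several changes were large and others small. CDC45, MKI67, TOP2A and CCNA2 were lower, at -0.98, -0.82, -0.68 and -0.63 on the log2 scale, and CCNE1 and MCM2 were higher, at 0.43 and 0.22. E2F1 was not called (-0.01, adjusted p = 0.93 by limma). The summed level of the 16 markers lay between 83064 and 86452 adjusted reads in the controls and between 68444 and 72186 after treatment. This sum is weighted to genes with many reads. Among them, MKI67 went from a mean of 12670.4 to 7172.7 and TOP2A from 13361.7 to 8344.1. As 7 of the 16 markers were not called, the sum does not describe the list as a whole. MYC was lower by limma, at -0.39 on the log2 scale (adjusted p = 9.4e-06). The part of these markers in the falls of TK1 and TYMS was not tested. In such bulk samples, fewer cells in S phase and less RNA per cell cannot be told apart.

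Beside the 9 enzymes, 50 other genes of pyrimidine metabolism and nearby processes were listed by role. The list also holds nucleoside transporters, uracil-DNA repair genes and PPAT, a gene of purine synthesis. Of the 50, 44 were tested. Of these, 19 were called lower, 8 higher and 17 not. That is 61.4% called, against 47.6% of all tested genes, which were not matched for expression. The median log2 fold change of the 44 was the same as that of the 9 enzymes, -0.10. The largest fall was that of NT5M, a mitochondrial deoxyribonucleotidase with few reads, which went from a range of 68.5 to 88.1 adjusted reads in the controls to one of 19.8 to 20.3 after treatment (log2 fold change -1.90, adjusted p = 1.9e-06 by limma). The largest rise was that of NT5E, the cell-surface nucleotidase CD73, from a range of 14525 to 16217 to one of 24089 to 24786 (0.68 on the log2 scale, adjusted p = 2.9e-09 by limma). Of the 8 nucleotidase and dNTP breakdown genes, 4 were lower and 3 higher. CDA, cytidine deaminase, fell by 0.33, and DCTD, dCMP deaminase, was not called (-0.05). Of 7 tested mono- and diphosphate kinases 4 were lower and none higher, with NME3 at -0.55. NME1 and NME2 share exons with the joined gene NME1-NME2, so their values are uncertain.

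**Figure D3:**
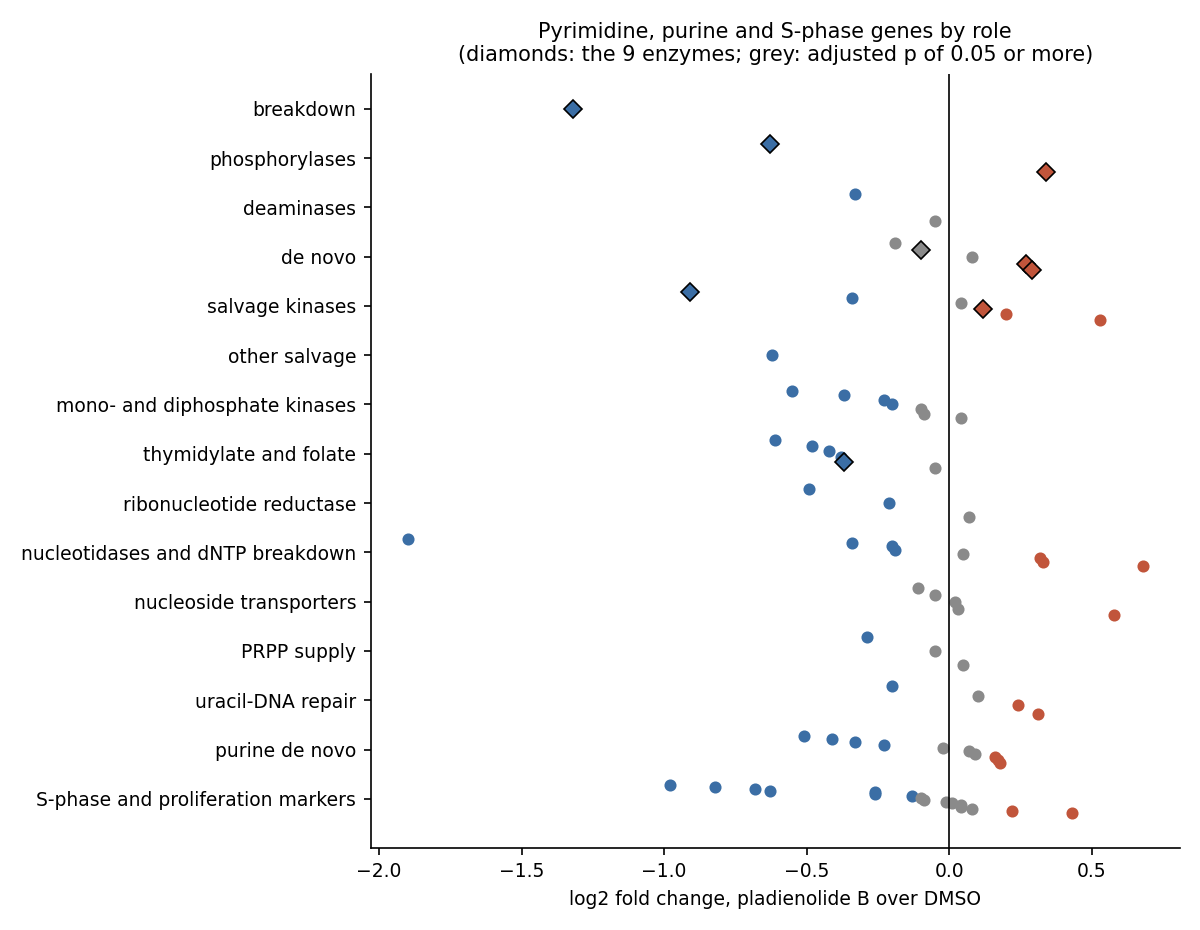
Log2 fold change, pladienolide B over DMSO (x axis), of each tested gene of the pyrimidine, purine and S-phase lists, in rows by role. Diamonds are the 9 enzymes, blue and red points were called lower and higher, and grey points were not called. The lowest point of the thymidylate and folate row is DUT, at -0.61, while the de novo row lies between -0.19 and 0.29.

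To compare the enzymes with each other, adjusted reads were divided by the length of the canonical transcript in kilobases. In DMSO the order from high to low was TK1, TYMS, UPP1, CAD, UCK2, TYMP, UMPS, DPYD and DHODH, and the 3 samples of neighbours in this order did not overlap. TK1 stood at 4790 ± 86.3 adjusted reads per kilobase and TYMS at 4130 ± 175 (SD, n = 3). In pladienolide B these changed places, with TK1 at 2540 ± 184 and TYMS at 3180 ± 118 (SD, n = 3). DPYD went from 173 ± 8.34 to 69.4 ± 6.54 (SD, n = 3) and from the eighth place to the last, below DHODH at 88.9 ± 4.48. Among the 15059 tested genes with a length, the level of DPYD stood at the 49.3 percentile in DMSO and at the 32.0 percentile in pladienolide B. TYMP and UMPS changed places as well. The order rests on 1 transcript per gene, and the transcripts used in these cells were not measured.

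**Figure D4:**
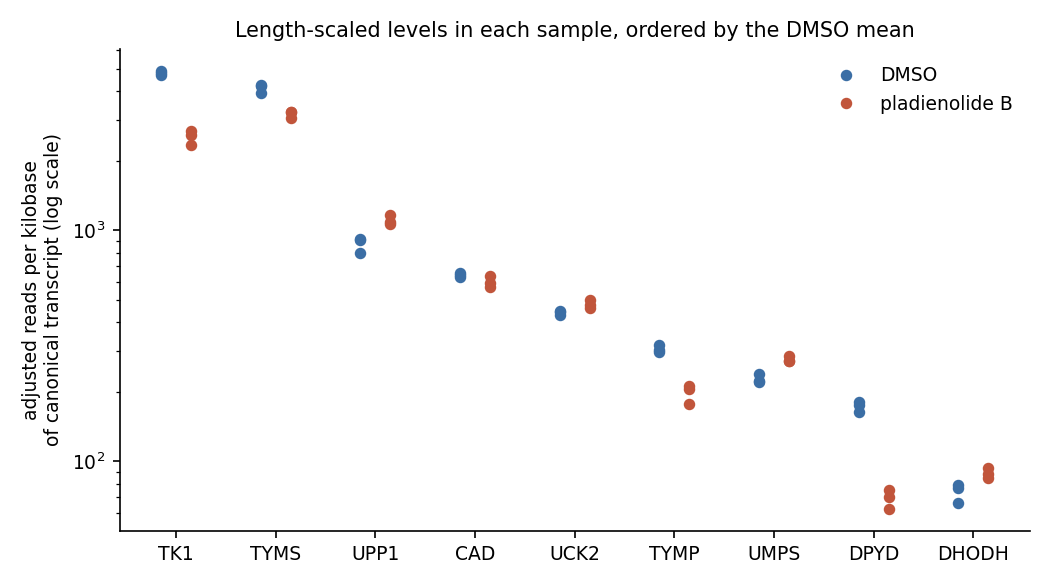
Adjusted reads per kilobase of canonical transcript (y axis, log scale) of each enzyme in every DMSO (blue) and pladienolide B (red) sample, ordered by the DMSO mean. DPYD drops from 173 to 69.4 and comes to lie below DHODH, and TK1 drops below TYMS.

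DPYD was also set against each of the other enzymes within a sample. The log2 ratio was lower in pladienolide B for all 8, and no treated sample reached a DMSO sample. DPYD had the largest fall of these enzymes, so a lower mean ratio to each of the others had to follow. The 8 ratios all contain DPYD, so they restate its fall and are not 8 separate results. DPYD fell 1.33-fold against TK1, 1.61-fold against TYMP and 1.93-fold against TYMS. Against the enzymes that rose or were not called it fell from 2.33-fold, for CAD, to 3.16-fold, for UPP1. The log2 ratio of DPYD to TYMS, for example, was -3.22, -3.14 and -2.98 in DMSO and -3.97, -4.15 and -4.07 in pladienolide B. Each of the 8 ratios gave p = 0.1 in the exact two-sided permutation test, and 0.1 after adjustment over the 8, which is the smallest value that this design allows.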

How the data were processed

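The deposited table holds, for each gene and sample, a signal that the authors adjusted for library size. Per the methods, trimmed reads were mapped with hisat2 on hg38. The submitters' processing notes name HISAT2, HTSeq 0.12.4, DESeq2 and hg19. For 99.8% of the 35926 genes whose symbols are in the GRCh38.p14 gene table, the positions in the file overlap the ones there, so GRCh38 was used. How the signal was made is not given in the sources used here. The values matched counts that edgeR had quantile-adjusted to a common size (TMM, common dispersion 0.0027). Undoing that step gave whole reads, to within 0.02, at 100% of 96432 values from 10 upward. Adjusting these reads again gave values within 9.4e-05 of the deposited ones. A log2 fold change, a p-value and a q-value per gene, from the authors' own comparison, were deposited too and not used.

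limma 3.58.1 was run on log2(value + 1), with the prior variance following expression, two-sided, on the 16178 genes that passed edgeR's filterByExpr (minimum count 10, minimum total 15), and p-values were adjusted by Benjamini-Hochberg. The pseudocount of 1 slightly understates changes of low genes. A gene was called at an adjusted p below 0.05. edgeR 4.0.16 and DESeq2 1.42.0 were run on the recovered reads as alternatives. Lengths, exons and introns are those of GENCODE v44 canonical transcripts. The genes named are the 9 enzymes, genes of fixed lists by role, genes overlapping the 9, and the 5 nearest profiles to DPYD. Some listed genes are not reported here by name. The members and lists were chosen with earlier results of these data known. Gene pairs for ratios other than those of DPYD were chosen after the values were seen.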

Additional observations from a re-analysis of the deposited data

How the results depend on the processing

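Each of the 9 enzymes was tested under 17 alternatives, of which edgeR without DMSO replicate 2 was chosen after seeing the data. No direction reversed, and 140 of 153 values kept their side of the threshold, among them all values of DPYD (-1.38 to -1.25), TK1 (-0.96 to -0.85), TYMP (-0.69 to -0.56), TYMS (-0.41 to -0.34), UPP1 (0.28 to 0.38) and UMPS (0.26 to 0.33). UCK2 was no longer called without a filter on low values (0.12, adjusted p = 0.0714 by limma) or without the variance trend (0.12, adjusted p = 0.11), but was called by edgeR without DMSO replicate 2 (0.11, adjusted p = 0.0476). DHODH was not called without the trend (0.27, adjusted p = 0.0502 by limma), which left 2 enzymes called higher. With each sample left out in turn, log2 fold changes lay between 0.09 and 0.15 for UCK2, 0.19 and 0.32 for DHODH and -0.15 and -0.07 for CAD, and from 2 to 4 enzymes were called higher and 4 to 5 lower. The counts for the other pyrimidine genes lay between 7 and 9 higher and between 17 and 19 lower under all alternatives. With the replicate number as a block, UCK2 missed the threshold by limma (0.12, adjusted p = 0.0708) and by edgeR (0.13, adjusted p = 0.0634), and no other enzyme's call changed. Samples that share a number did not deviate together (r from -0.02 to 0.00 for the 3 pairs), so the numbers were not read as pairs. Over all tested genes the alternatives called 2920 to 3973 higher and 3461 to 4069 lower, with 3716 and 4022 by edgeR on the recovered reads. Genes with few reads, such as DPYS, UPB1 and UPP2, could not be tested at this depth, and with 3 samples a group the permutation tests could not go below 0.1.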

Other observations

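Of the 10 listed genes of de novo purine synthesis, 4 were called lower and 3 higher by limma, with a median log2 fold change of 0.02. That is 70% called, against 47.6% of all tested genes (25.2% lower, 22.4% higher), which were not matched for expression. ADSS1, ADSS2 and GMPS were not called. IMPDH1, ADSL, IMPDH2 and PAICS were lower, at -0.51, -0.41, -0.33 and -0.23 on the log2 scale. GART, ATIC and PFAS were higher, at 0.18, 0.17 and 0.16. GART, PFAS and ATIC act on the way to IMP, as do PAICS and ADSL, so genes of this route went both ways. PPAT, which shares a start region with PAICS and overlaps it on the opposite strand, was not called (-0.05, adjusted p = 0.38 by limma).

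The genes that follow are among the 44 tested pyrimidine genes counted above. Of 5 tested nucleoside transporters, which carry uridine, thymidine and their analogues across membranes, SLC28A3 was the one called, from a range of 37.6 to 60.6 adjusted reads in the controls to one of 66.8 to 74.2 after treatment (log2 fold change 0.58, adjusted p = 0.026 by limma). SLC29A1, the main equilibrative transporter, had 1575 to 1725 and 1572 to 1609 adjusted reads (-0.05, adjusted p = 0.47 by limma). It shares 14558 bases of span with POLR1C. Of the 4 uracil-DNA repair genes, TDG rose by 0.31 and MBD4 by 0.24, and UNG was not called (0.10, adjusted p = 0.11 by limma). SMUG1 fell by 0.20, close to the threshold (adjusted p = 0.048 by limma). It overlaps the noncoding RNA genes LINC02381, by 6773 bases, and SMUG1-AS1, by 5094 bases, on the opposite strand.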
